A study of Mus musculus with 21 samples.

Results

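The 10 genes described here serve antigen presentation on MHC class II in the colon of germ-free (GF) mice. They were chosen by name: the class II chains H2-Aa, H2-Ab1 and H2-Eb1, the peptide exchange chains H2-DMa and H2-DMb1, the invariant chain Cd74, the class II transactivator Ciita, the costimulatory ligand Cd86, the integrin chain Itgax and the cytokine receptor Flt3. They are 10 of the 29834 genes named on the arrays, and all 10 were detected well enough to be tested at each day. Every probe named for a member was taken, which gave 23 probes at day 0 and 14 at day 7, and the probe with the highest mean signal of the day stands for its gene. Total RNA of colon tissue was measured with 21 single-color arrays, with 1 array per sample. At day 0, before dextran sulfate sodium (DSS, a detergent-like polymer given in drinking water that injures the colon epithelium), 7 arrays carry the label GF Card9-/- and the other 6 the label GF WT. At day 7, after 7 days of 2% DSS, 4 arrays carry each label. All mice were C57BL/6J and germ-free, so neither label had a microbiota, and the label GF Card9-/- names a deletion carried in all cells. The paper gives male sex for the germ-free mice that it colonized, and not separately for those of the arrays. The age of these mice is not given in the sources used here.

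MHC class II molecules show peptides of extracellular origin to CD4 T cells. An alpha and a beta chain assemble in the endoplasmic reticulum around the invariant chain CD74, which is degraded in endosomes until a remnant fills the groove, and the H2-DM heterodimer then exchanges that remnant for a peptide. CIITA is the master transactivator of these genes: it binds no DNA itself and is recruited by factors that sit on a conserved X box and Y box upstream of each class II gene. In the intestine class II is carried mainly by dendritic cells, macrophages and B cells, and by epithelial cells when interferon gamma induces Ciita. CD86 gives the second signal to the T cell, ITGAX (CD11c) marks dendritic cells and many intestinal macrophages, and FLT3 is the receptor that dendritic cell precursors need to expand.

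Promoter stretches of class II genes are shown for the X box and Y box named above, and whether these sequences bear on the values below was not tested. Of the members, 6 have a promoter in the RefSeq-derived table used here (build GRCm38.p6), each reaching from upstream of the annotated start to shortly past it. The letters searched on both strands were GNAAC, a core of the X box, followed after 24 to 27 bases by GATTGG, the Y box with its inverted CCAAT core. These letters were set with the class II promoters in view. The pair occurs in 3 of these 6 members, H2-Aa, H2-Eb1 and H2-DMb1, and in 3 of the 15 other genes of the class II pathway that have a promoter there, H2-Oa, H2-Ob and H2-Eb2. Over all 32851 promoters listed, 0.234% hold it, while GATTGG alone is in 16.1% and GNAAC alone in 84.8%. No match was found within these windows of H2-DMa, Itgax and Flt3, which says nothing of factors bound there. The lines run 5′ to 3′ on the strand of the gene and end before the annotated start, and capitals mark the 2 cores.
H2-Aa: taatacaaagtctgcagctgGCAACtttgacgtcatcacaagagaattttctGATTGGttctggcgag
H2-Eb1: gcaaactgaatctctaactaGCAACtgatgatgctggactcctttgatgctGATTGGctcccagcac
H2-DMb1: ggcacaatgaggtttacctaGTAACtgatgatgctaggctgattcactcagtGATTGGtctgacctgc
H2-Oa: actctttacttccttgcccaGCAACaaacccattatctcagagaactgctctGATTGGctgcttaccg
H2-Ob: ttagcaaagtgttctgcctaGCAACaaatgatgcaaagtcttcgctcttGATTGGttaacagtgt
The H2-Aa stretch is chr17:34287857-34287924 on the minus strand, and the others are on the plus strand at chr17:34305756-34305822 (H2-Eb1), chr17:34153077-34153144 (H2-DMb1), chr17:34092283-34092350 (H2-Oa) and chr17:34238798-34238862 (H2-Ob). The gap between the cores was 27 bases in H2-Aa, H2-DMb1 and H2-Oa, 26 in H2-Eb1 and 24 in H2-Ob, and the Y box core began between positions -62 and -44 from the start in these 5, against -101 in H2-Eb2, which is not printed.

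The array labels go against the signal of the deleted gene, and every direction given below is that of the labels. The brightest Card9 probe at day 0 gave a normalized log2 intensity of 8.71 to 9.24 on the 7 arrays labelled GF Card9-/- and of 2.30 to 2.33 on the 6 labelled GF WT. At day 7 it gave 7.93 to 8.57 on the 4 arrays labelled GF Card9-/-, 7.85 on the array labelled GF WT 1 and at most 2.41 on the other 3 labelled GF WT. A dimmer Card9 probe at day 0 averaged 7.11 on the arrays labelled GF Card9-/- and 3.31 on those labelled GF WT. Both probes of day 0 were well above background on 7 of 7 and 0 of 6 of these arrays. Whether the Card9 probes lie in the deleted part is not given in the sources used here. Whether labels were exchanged was not tested. The label differences of day 7 are given below with GF WT 1 and, for the members and lists, also without it. Feature Extraction marked 54.5% to 64.9% of spots as well above background on the arrays of day 0, and 42.2% to 57.1% on those of day 7, with no spot saturated. The days are on different array designs, so a level was never compared between days. All 10 genes of a colonocyte list were well above background on every array of each day. Other tissues also showed: pancreas genes averaged 9.56 above the mean of the day (log2) on GF Card9-/- 7 at day 0 and 7.55 and 3.63 on GF Card9-/- 6 and 2.1 at day 7, adipocyte genes averaged -5.21 on GF Card9-/- 5 at day 0, and small intestine genes 1.92 on GF WT 6 at day 0.

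The class II chains were among the more variable genes of the unchallenged colon, and their spread within a label was wider than the difference between labels. In bulk tissue fewer cells of a type and less RNA per cell cannot be told apart. At day 0 H2-Ab1, the beta chain of the I-A molecule (probe A_55_P1962747, chr17:34406296-34406355 on build NCBI37), had a lowest, median and highest normalized log2 intensity of 13.05, 14.24 and 14.88 in GF Card9-/- and of 12.37, 14.73 and 15.57 in GF WT. The highest and the 2 lowest of the 13 arrays were all labelled GF WT. H2-Aa, its alpha chain partner (A_52_P343306, chr17:34421285-34421344), ran from 9.99 over 11.14 to 11.85 in GF Card9-/- and from 9.39 over 11.55 to 12.47 in GF WT. H2-Eb1, the gene of the I-E beta chain (A_55_P2156731, chr17:34453075-34453134), ran from 12.77 over 13.92 to 14.50 and from 12.06 over 14.39 to 15.07. Whether an I-E molecule was made in these mice was not measured. In all 3 genes GF WT 5 was lowest and GF WT 2 highest, so the GF WT arrays enclosed the GF Card9-/- arrays. The span over the 13 arrays was 9.22-fold for H2-Ab1, 8.46-fold for H2-Aa and 8.07-fold for H2-Eb1. The deposited annotation gives positions only, so whether a probe lies in an exon or a UTR was not analysed here.

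Cd74, the invariant chain (A_51_P284608), ranged from 11.94 over 13.20 to 14.00 in GF Card9-/- and from 11.32 over 13.66 to 14.33 in GF WT at day 0, which is 8.03-fold between the extremes. Its order of arrays was nearly that of the class II chains, with GF WT 5, GF WT 6 and GF Card9-/- 7 lowest and GF WT 2, GF WT 4 and GF WT 1 highest. The DM chains, which load the peptide, spanned less. H2-DMa (A_51_P473734, chr17:34274300-34274863) ranged from 8.15 over 8.80 to 9.58 in GF Card9-/- and from 7.59 over 9.14 to 9.62 in GF WT. H2-DMb1 (A_51_P278868, chr17:34297109-34297168) ranged from 9.52 over 10.42 to 11.18 and from 9.01 over 10.69 to 11.59. H2-DMb1 has a near-identical neighbor, H2-DMb2, and the share of its signal that comes from that copy was not tested.

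Ciita, which drives class II transcription (A_66_P119948, chr16:10526458-10526517), had the widest span of the members at day 0, 13.1-fold. It ranged from 8.66 over 9.61 to 11.44 in GF Card9-/- and from 7.99 over 10.03 to 11.70 in GF WT. GF WT 5 and GF WT 6 were lowest at 7.99 and 8.02, and GF WT 2 and GF Card9-/- 6 were highest at 11.70 and 11.44. Cd86, the costimulatory ligand (A_55_P1971951, chr16:36603961-36604020), ranged from 5.67 over 6.57 to 7.40 in GF Card9-/- and from 4.79 over 6.97 to 7.48 in GF WT, and on GF WT 5 and GF WT 6, both at 4.79, it was not well above background. Itgax (A_51_P303424, chr7:135294052-135294111) ranged from 7.64 over 8.65 to 9.35 and from 7.37 over 9.25 to 9.97. Flt3 (A_66_P116412, chr5:148142576-148142635) ranged from 4.74 over 5.92 to 7.02 and from 4.92 over 6.43 to 7.27, and it was not well above background on GF Card9-/- 7. The arrays low in the class II chains were thus also low in the dendritic cell and myeloid genes Flt3 and Itgax. The labels overlapped in every member, as in all but 217 (0.458%) of the 47410 probes tested.

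**Figure D1:**
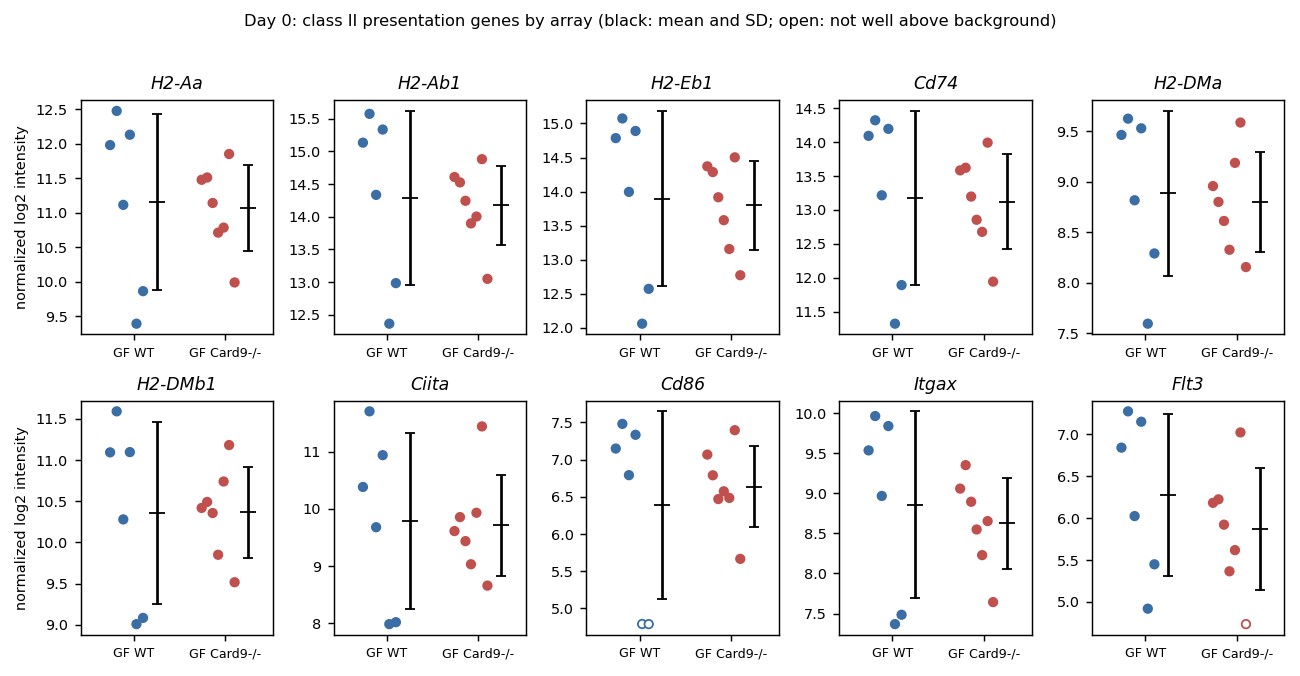
Normalized log2 intensity (vertical axis, own scale per gene) of the 10 class II presentation genes at day 0, each point 1 array, with GF WT in blue (n = 6) and GF Card9-/- in red (n = 7); black marks give mean and SD, and open points are not well above background. In every gene the labels overlap, as in all but 0.458% of the probes tested. The GF WT arrays are more spread in every gene, as in H2-Ab1, with 12.37 to 15.57 against 13.05 to 14.88.

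Compared with other genes, this spread was large. The SD over the 13 arrays of day 0 was between 0.63 (H2-DMa) and 1.17 (Ciita), where the median over the 24555 genes tested was 0.27. Only 3.62% of the genes had a larger SD than Ciita, 6.98% than Cd74, 7.14% than H2-Ab1 and 19.3% than H2-DMa. The SD was larger in GF WT than in GF Card9-/- for 10 of 10 members, for example 1.33 (n = 6) against 0.60 (n = 7) for H2-Ab1, and this difference of spreads was not tested. At day 7 the members' SD over the 8 arrays was between 0.47 (Cd86) and 1.03 (Flt3) beside a median of 0.36 over 21513 genes, and 5 of 10 members had the larger SD in GF WT.

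No member differed between the labels at day 0 by limma with Benjamini-Hochberg adjustment over all 47410 probes tested. Of the probes tested, 12 (0.0253%) had an adjusted p under 0.05, and 0 of 10 members did, with 0 members at an unadjusted p under 0.05. The differences, GF Card9-/- minus GF WT, ran from -0.41 ± 0.45 (SE, 7 against 6 arrays) for Flt3 to 0.25 ± 0.50 for Cd86, and the adjusted p-values from 0.913 to 0.9995 by that fit. Of the members, 8 were lower and 2 (Cd86 and H2-DMb1) higher in GF Card9-/-, with a median log2 difference of -0.09 beside 0.01 over all genes tested. The 95% intervals were wide, -1.26 to 1.03 for H2-Ab1, -1.21 to 1.11 for Cd74 and -1.48 to 1.33 for Ciita, and together they leave room for differences from 0.359-fold to 2.51-fold. Exact two-sided permutation tests of the single genes gave p between 0.389 (Flt3) and 0.993 (H2-DMb1). Within the first scan session (6 arrays) the median over the members was -0.39, within the second (7 arrays) it was 0.15, and with the session as a block it was -0.10, so the direction did not hold within both sessions. Without GF Card9-/- 5 and 7, whose adipocyte and pancreas scores stood apart, the median was 0.12, and with GF WT 6, which stood apart in the small intestine list, left out as well it was -0.13. Leaving out single arrays gave -0.44 (without GF WT 5) to 0.16 (without GF WT 2).

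At day 7 of DSS the labels again overlapped in every member, as in all but 949 (2.13%) of the 44643 probes tested. H2-Ab1 read 15.16, 13.84, 14.88 and 15.58 on GF Card9-/- 2, 2.1, 4 and 6, and 14.85, 14.16, 15.49 and 13.93 on GF WT 1, 4, 5 and 6. H2-Aa read 11.84, 10.41, 10.41 and 12.27 in GF Card9-/- and 10.79, 10.30, 11.94 and 10.53 in GF WT. Cd74 read 14.06, 12.49, 13.34 and 14.70 in GF Card9-/- and 14.31, 12.85, 15.07 and 12.54 in GF WT. Each label thus had arrays at both ends: GF Card9-/- 6 and GF WT 5 were high in all 3 genes, and GF Card9-/- 2.1, GF WT 4 and GF WT 6 were low, joined in H2-Aa by GF Card9-/- 4. H2-Eb1 read 14.92, 13.44, 14.52 and 14.99 in GF Card9-/- and 14.63, 13.90, 15.25 and 13.53 in GF WT. H2-DMa read 9.17, 8.18, 7.90 and 9.47 in GF Card9-/- and 8.38, 7.32, 8.96 and 7.94 in GF WT. H2-DMb1 read 11.04, 9.97, 10.75 and 11.66 in GF Card9-/- and 10.76, 9.91, 11.10 and 9.66 in GF WT. GF Card9-/- 6 was highest in both DM genes, and GF WT 4 and 6 were among the 3 lowest in both.

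Among the regulators and cell-borne members at day 7, Ciita was poorly measured. Its brightest probe there (A_55_P2179074, chr16:10526568-10526627) read 4.75, 2.56, 5.10 and 6.00 in GF Card9-/- and 5.12, 4.74, 4.29 and 4.54 in GF WT, with 3 of 4 and 1 of 4 arrays well above background. It is another probe than the brightest of day 0. Flt3 read 6.59, 5.37, 6.06 and 7.67 in GF Card9-/- and 6.84, 4.44, 6.79 and 5.46 in GF WT. Cd86 read 6.72, 6.11, 6.79 and 7.11 in GF Card9-/- and 6.86, 5.99, 7.11 and 6.04 in GF WT. Itgax read 9.59, 8.80, 9.57 and 9.80 in GF Card9-/- and 9.69, 9.03, 10.21 and 8.73 in GF WT. The labels overlapped in all of these genes too, as in all but 2.13% of the probes tested. GF WT 4 and 6 and GF Card9-/- 2.1 were at the low end of Cd86, Itgax and Flt3.

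**Figure D2:**
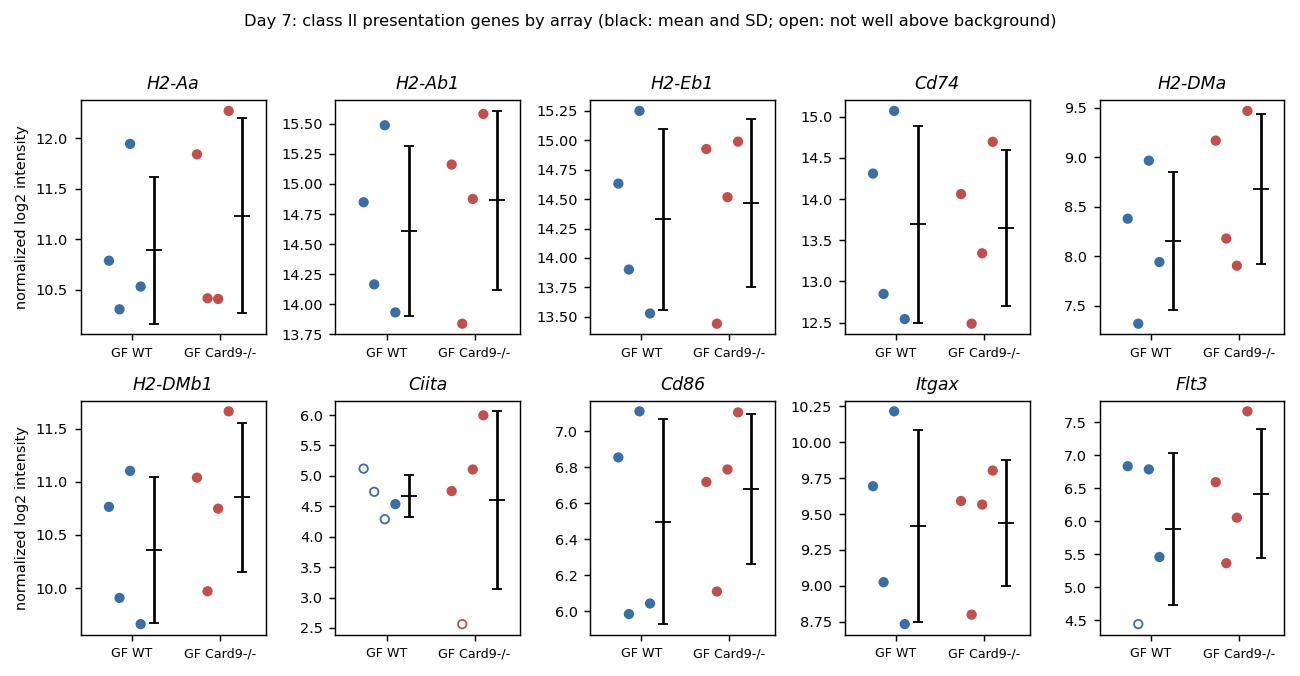
Normalized log2 intensity of the same 10 genes at day 7 of DSS, each point 1 array, with GF WT in blue (n = 4) and GF Card9-/- in red (n = 4); black marks give mean and SD, and open points are not well above background. The labels overlap in every gene, as in all but 2.13% of the probes tested, and 4 of the 8 Ciita points are open.

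None of the 44643 probes tested at day 7 had an adjusted p under 0.05 (0%), and 0 of 10 members did. By limma 1511 probes had an unadjusted p under 0.05, and 0 of the members were among them. Differences ran from -0.07 ± 0.68 (SE, 4 against 4 arrays) for Ciita to 0.54 ± 0.68 for Flt3, next to 0.53 ± 0.47 for H2-DMa and 0.50 ± 0.45 for H2-DMb1. Of the members, 8 were higher in GF Card9-/-, with a median of 0.22 beside 0.00 over all genes tested, and the adjusted p-values were between 0.913 and 0.99997 in that fit. The 95% intervals reached from -0.84 to 1.35 for H2-Ab1 and from -1.67 to 1.57 for Cd74, and over the members they hold 0.315-fold to 4.39-fold. Exact two-sided permutation p-values of the single genes were 0.343 for H2-DMa and higher for the others, where 0.0286 is the smallest that 4 against 4 arrays allow. Without GF WT 1, which carried the Card9 signal, 0 members passed, all 10 were higher in GF Card9-/- and their median was 0.30, while 1 probe passed, that of Card9 (adjusted p = 0.00114 by limma). Leaving out other single arrays gave 0.01 (without GF Card9-/- 6) to 0.61 (without GF Card9-/- 2.1). At day 7 the median log2 difference, GF Card9-/- minus GF WT, was 4.82 over the pancreas list, 1.45 over the adipocyte list and 1.005 over the small intestine list (4.65, 1.17 and 0.80 without GF WT 1). The pancreas score was 7.55 and 3.63 on GF Card9-/- 6 and 2.1 but -2.04 and -0.81 on GF Card9-/- 2 and 4, beside -2.46 to -1.81 on the arrays labelled GF WT. The part of such tissue in the members' values was not tested.

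**Figure D3:**
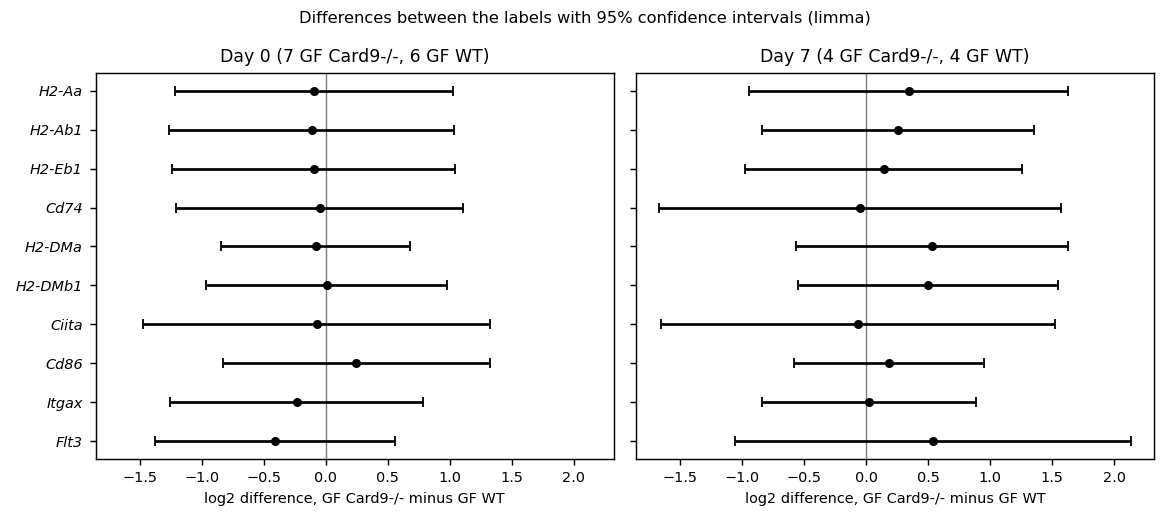
Log2 difference of the 10 genes between arrays labelled GF Card9-/- and GF WT (horizontal axis) at day 0 and day 7, with 95% confidence intervals from limma. Every interval crosses 0, and at day 0 the estimates lie between -0.41 and 0.25.

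Whether the label difference itself differed between the days was tested in a joint fit on the 23633 probes of both designs detected at both days. In that fit 0% of the probes and 0 of the 9 members with a shared probe had an adjusted p under 0.05, while 1688 probes had an unadjusted p under 0.05. Ciita has no tested probe that both designs name for it. The difference at day 7 minus that at day 0 was largest for Flt3, 0.95 (95% interval -0.72 to 2.62, adjusted p = 0.847 by limma), followed by H2-DMa with 0.61 (-0.63 to 1.85, adjusted p = 0.874). For Cd74 it was 0.00 (-1.86 to 1.87). Without GF WT 1 of day 7 these values were 1.27, 0.69 and 0.21, with 0 members past the threshold.

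The members moved together over the arrays. The 6 genes of the peptide-loading core, H2-Aa, H2-Ab1, H2-Eb1, H2-DMa, H2-DMb1 and Cd74, gave 15 pairs, whose Pearson r over the 13 arrays of day 0 was 0.875 to 0.997 with a median of 0.955. Over the 8 arrays of day 7 it was 0.738 to 0.983 with a median of 0.858. These arrays share their normalization within a day. The first principal component of the 10 members held 93.6% of their scaled variance at day 0 and 83.2% at day 7.

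Cd74 served as the common partner for tests of this relation, with 18 relations over both days adjusted together. At day 0 all 9 other members correlated with Cd74 by permutation test, from r = 0.908 (H2-DMa) to r = 0.995 (H2-Aa), and each adjusted p was at most 0.000108 (100000 resamples). Spearman's rho at day 0 was 0.879 for H2-DMa (adjusted p = 0.00028 by permutation) and 0.989 for H2-Aa. Without GF WT 5 and GF WT 6, the 2 arrays farthest from the median of Cd74, r stayed between 0.841 and 0.990. Within the first scan session r was 0.941 to 0.999 and within the second 0.808 to 0.995, and with the label means subtracted it was 0.909 to 0.995. The relation therefore held within both sessions and within the labels.

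At day 7, r with Cd74 was 0.963 for Itgax, 0.957 for H2-Eb1, 0.949 for H2-Ab1 and 0.935 for Cd86, each with an exact permutation p adjusted to 0.00168 or less. It was 0.902 for H2-DMb1, 0.860 for Flt3, 0.843 for H2-Aa and 0.783 for H2-DMa, with adjusted exact permutation p of 0.00456, 0.0089, 0.0176 and 0.0307. For H2-DMa the rank relation did not pass (rho = 0.667, adjusted exact permutation p = 0.088). Ciita did not pass either (r = 0.521, adjusted exact permutation p = 0.185; rho = 0.476, adjusted exact permutation p = 0.243), and it was not well above background on 4 of the 8 arrays. Without GF WT 5 and GF Card9-/- 2.1, r was 0.770 for Ciita and 0.790 to 0.935 for the other members, and the relations of H2-Aa and H2-DMa then no longer passed at n = 6 (adjusted exact permutation p = 0.0764 and 0.0563). H2-Aa and H2-DMa were closest to each other at day 7, with r = 0.9455, against 0.843 and 0.783 with Cd74.

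Scores of marker lists of several immune cell types, whether or not they carry class II, had a positive r with these genes, but single genes of most lists went both ways. For each array the core class II score is the mean of the 6 core genes' log2 intensities after each gene was centered on its average for the day, and list scores were made the same way. At day 0 the core score was highest on GF WT 2 (1.19), GF WT 4 (0.94), GF WT 1 (0.84) and GF Card9-/- 6 (0.74), and lowest on GF WT 5 (-1.63), GF WT 6 (-1.14) and GF Card9-/- 7 (-1.02). Over the 13 arrays it ran with the conventional dendritic cell list (r = 0.883, rho = 0.951; 11 genes), the plasmacytoid dendritic cell list (r = 0.864, rho = 0.918; 6 genes) and the macrophage list (r = 0.831, rho = 0.852; 11 genes). Without GF Card9-/- 5, whose adipocyte genes were far below those of the others and whose smooth muscle score was the lowest (-2.09), these r were 0.951, 0.871 and 0.897. The values were lower for the lymphoid tissue (r = 0.768), plasma cell (r = 0.759), neutrophil (r = 0.681), B cell (r = 0.679) and T cell lists (r = 0.638), and GF Card9-/- 6 had the highest B cell score (2.29) and T cell score (1.91) of the day. Gene by gene, r was over 0.7 for 9 of 11 macrophage genes (median 0.813), 6 of 9 lymphoid tissue genes (0.762), 3 of 10 B cell genes (0.654), 2 of 6 plasmacytoid dendritic cell genes (0.53), 3 of 6 plasma cell genes (0.515), 0 of 6 neutrophil genes (0.495) and 3 of 10 T cell genes (0.420). In the plasmacytoid dendritic cell list Pacsin1 (-0.585) and Klk1 (-0.566) were negative, as was Sdc1 (-0.826) in the plasma cell list. The part of these cell types in the spread of the class II genes was not tested.

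The same lists ran with the core score over the 8 arrays of day 7: plasma cell r = 0.968, conventional dendritic cell r = 0.958, plasmacytoid dendritic cell r = 0.952, macrophage r = 0.886, lymphoid tissue r = 0.877, B cell r = 0.763, T cell r = 0.742 and neutrophil r = 0.499. Gene by gene, r was over 0.7 for 8 of 8 lymphoid tissue genes (median 0.852), 7 of 11 macrophage genes (0.783), 7 of 10 B cell genes (0.778), 4 of 10 T cell genes (0.646), 1 of 6 plasmacytoid dendritic cell genes (0.621), 2 of 5 plasma cell genes (0.53) and 1 of 7 neutrophil genes (0.308). In the plasma cell list Jchain, which had the largest SD (2.29), had r = 0.866, while Xbp1 (-0.526) and Sdc1 (-0.311) were negative, as were Pax5 (-0.468) and Cd22 (-0.449) in the B cell list and Pacsin1 (-0.050) in the plasmacytoid dendritic cell list. Within the conventional dendritic cell list r was over 0.7 for 6 of 11 genes at day 0 (median 0.752) and for 3 of 12 at day 7 (median 0.521). Of its genes, Wdfy4, needed for cross-presentation, had r = 0.955 at day 0 and 0.934 at day 7, and Batf3, a factor of the cross-presenting subset, had 0.850 and 0.946. Values under 0.5 at both days, or at the day tested, were those of Dpp4 (-0.589 and -0.411), Zbtb46 (-0.069 and 0.49), Irf8 (0.322 and 0.181), Clec10a (0.368 and 0.0798) and, tested at day 7 only, Xcr1 (-0.089). Zbtb46 was well above background on 3 of 13 arrays at day 0 and on 0 of 8 at day 7. Among the members, Itgax was closest to the macrophage list at day 0 (r = 0.929), while Ciita was closest to the lymphoid tissue list (r = 0.911) and had r = 0.856 with the B cell list, where Itgax had 0.501. At day 7 Ciita had r = 0.517 and Itgax 0.635 with the B cell list, so the order was the other way, and Itgax had 0.940 with the plasma cell list beside 0.931 with the macrophage list. H2-Eb1 had r = 0.908 with the conventional dendritic cell list, 0.906 with the macrophage list, 0.801 with the plasma cell list and 0.604 with the B cell list at day 0, and 0.879, 0.877, 0.962 and 0.748 at day 7. These r are descriptions over few arrays that share each array's makeup.

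**Figure D4:**
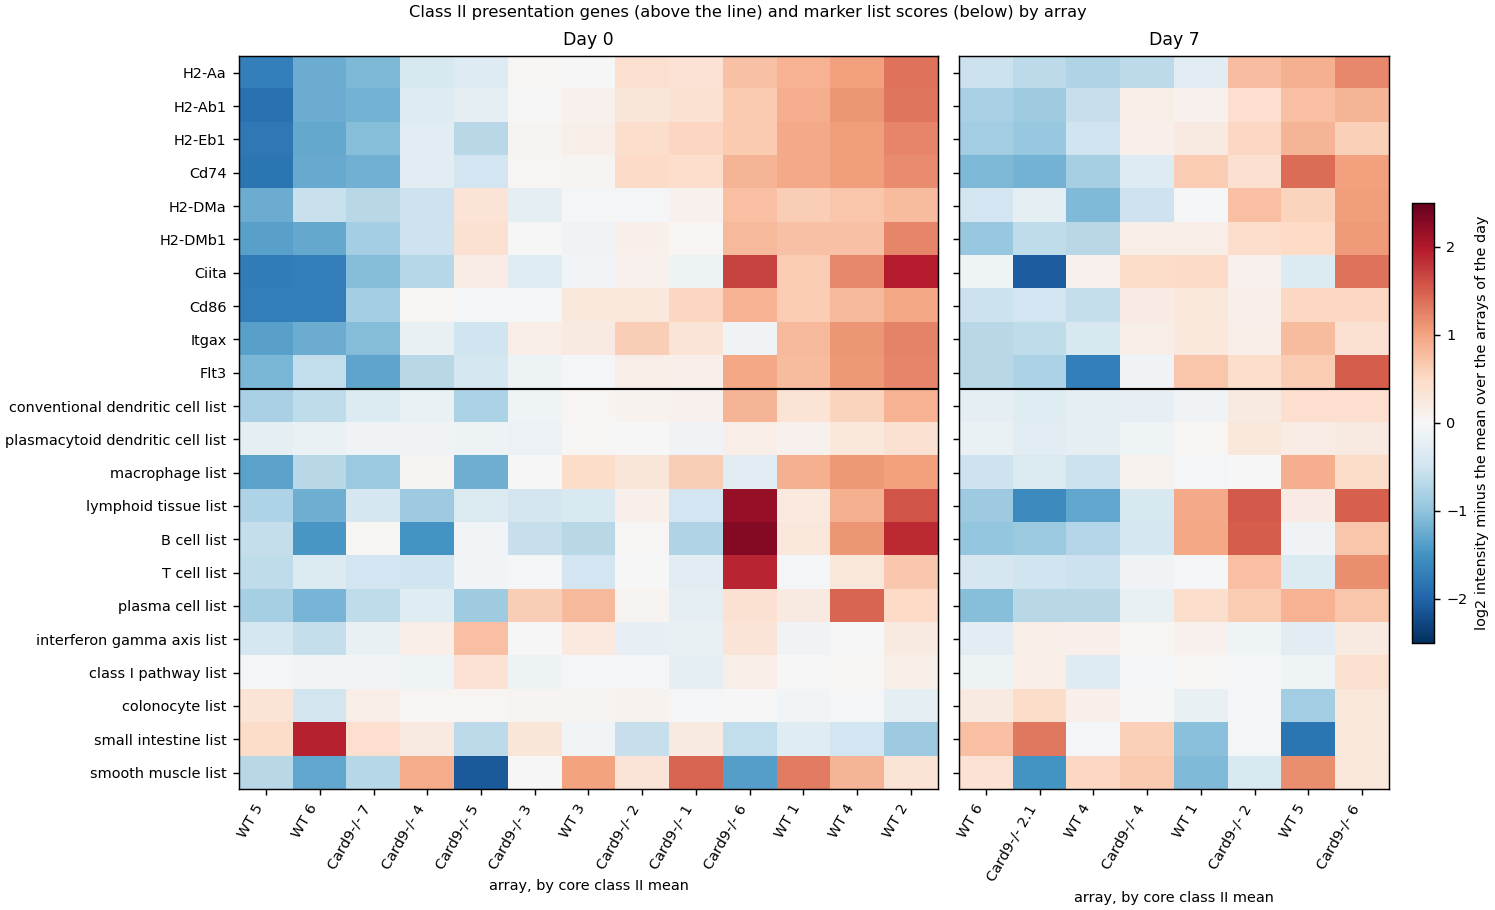
Log2 intensity minus the mean over the arrays of the day (color) for the 10 class II presentation genes (above the line) and for scores of marker lists (below), with the arrays of each day ordered by the mean of the 6 core genes. Arrays of both labels are mixed along the order, and the dendritic cell and macrophage lists shade from low to high with the class II genes, while GF WT 6 at day 0 stands apart in the small intestine list (1.92).

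Epithelial list scores had a negative r with the class II score, and the scores of the interferon gamma and class I lists had a lower r than those of the dendritic cell lists. The colonocyte score had r = -0.316 with the core score at day 0 and -0.523 at day 7, but its genes went both ways, from -0.870 (Vil1) to 0.440 (Aqp8) at day 0 with a median of -0.723, and from -0.672 (Cdx2) to 0.6245 (Cdh1) at day 7 with a median of -0.102. A small intestine list added after the data were seen had -0.744 and -0.601. The small intestine score was 1.92 on GF WT 6, which was low in class II, and at most 0.46 on the other 12 arrays of day 0. An interferon gamma list of 13 genes, among them the inducer Ifng and the targets Irf1, Cxcl9 and Gbp2, had r = 0.478 at day 0, 0.677 there without GF Card9-/- 5, and -0.023 at day 7. Ifng was well above background on 0 of 13 arrays at day 0. The class I pathway list, with H2-K1, B2m and the peptide transporter Tap1 among its 13 genes, had r = 0.328 (0.518 without GF Card9-/- 5) and 0.461. Gene by gene the median r was 0.0777 at day 0 and 0.306 at day 7 for the interferon gamma list and 0.213 and 0.463 for the class I list, beside 0.752 and 0.521 for the conventional dendritic cell list, and the gene of the interferon gamma list with the largest SD at day 7 was Cxcl9 (2.05, r = -0.282). These values are descriptions and their difference from those of the dendritic cell lists was not tested.

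**Figure D5:**
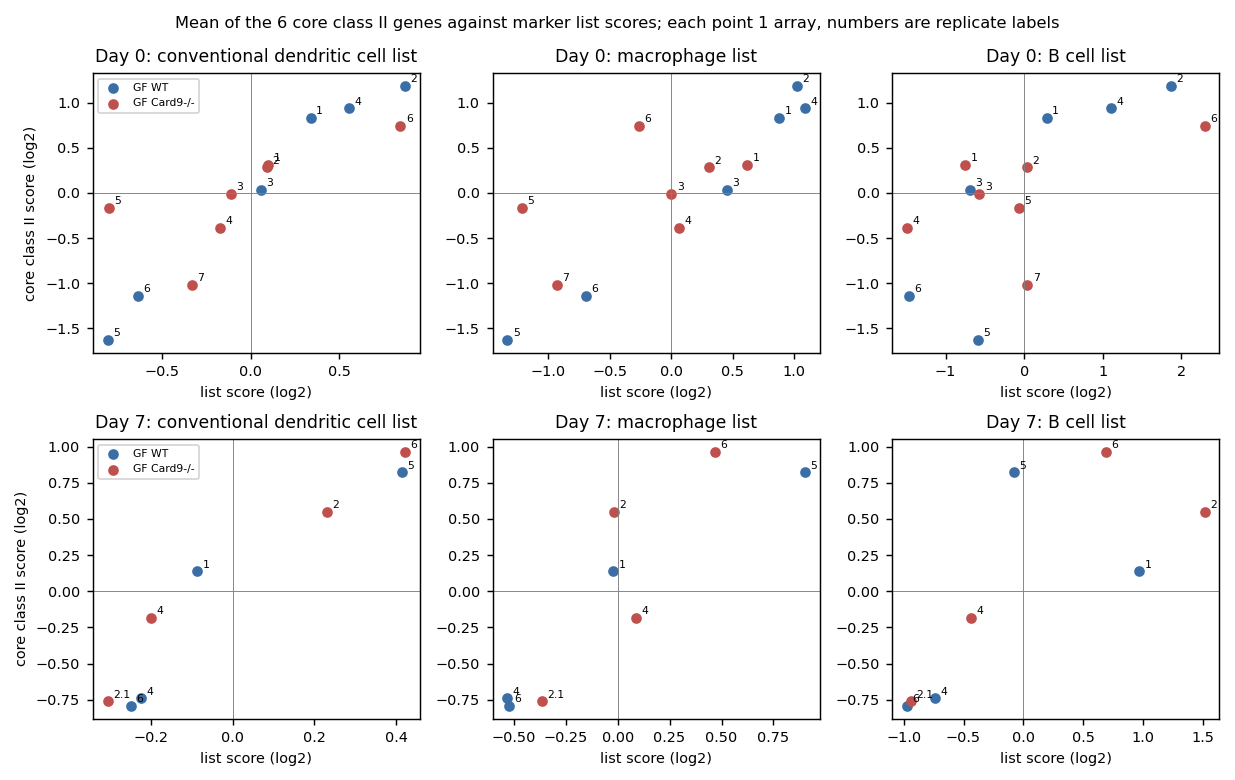
Mean of the 6 core class II genes (vertical axis, log2 relative to the mean of the day) against the score of 3 marker lists (horizontal axis), each point 1 array named by its replicate label, at day 0 (top) and day 7 (bottom). The class II score rises with the conventional dendritic cell score on both days (r = 0.883 and 0.958), and GF Card9-/- 5 at day 0 lies far left of the arrays with a like class II score (-0.16) in the dendritic cell and macrophage plots.

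The other genes of the pathway did not differ between the labels past the threshold. Of 20 such genes, all tested at each day, 0 passed at either day, the median label difference was -0.02 at day 0 and 0.05 at day 7, and 2 and 3 genes had an unadjusted p under 0.05 by limma, where 5.84% and 3.38% of all probes tested did. Without GF WT 1 of day 7 the median there was 0.02. Of the 20 genes, r with the core score was over 0.7 for 5 at day 0 and for 7 at day 7. The remaining class II genes varied with the members: r with the core score at day 0 and day 7 was 0.804 and 0.842 for H2-Oa and 0.733 and 0.768 for H2-Ob, which form the inhibitor of DM, 0.705 and 0.858 for H2-DMb2, and 0.638 and 0.743 for H2-Eb2, of which H2-DMb2 and H2-Eb2 were well above background on 7 and 6 of the 13 arrays of day 0 and on 3 and 5 of the 8 of day 7. Their SD over arrays was 1.29 to 1.73 at day 0. The factors that occupy the X and Y boxes varied little at day 0, with an SD of 0.19 for Rfx5, 0.20 for Rfxank, 0.15 for Rfxap, 0.13 for Creb1 and Nfyb, 0.09 for Nfya and 0.07 for Nfyc. Their r was positive for Creb1 (0.665) and negative for the others, from -0.627 (Nfyb) to -0.129 (Nfya). At day 7, where Rfx5, Rfxap, Nfya and Creb1 were read by other probes and Rfx5 was well above background on 0 of 8 arrays, the SD was 0.64 for Nfya, 0.56 for Rfx5 and 0.44 for Nfyb, above the gene median of 0.36, and r ran from -0.349 (Rfxap) to 0.306 (Creb1). Of the lysosomal proteases, Ctss, which trims the invariant chain in dendritic cells and B cells, had r = 0.313 and 0.0785 at day 0 and day 7. The others had 0.899 and 0.593 (Ctsh), 0.741 and 0.524 (Ctsl), 0.310 and 0.723 (Lgmn), 0.230 and 0.713 (Ctsb) and -0.481 and 0.747 (Ctsd), with Ctss and Ctsb read by other probes at day 7. The thiol reductase Ifi30 had -0.272 and 0.456. Of the ubiquitin ligases that turn over class II, Marchf8 had r = -0.757 and -0.474 and Marchf1 0.331 and 0.275. By label, the highest differences at day 0 were those of H2-DMb2 (0.34) and Rfxap (0.14) and the lowest those of Lgmn (-0.46) and H2-Eb2 (-0.39) (adjusted p = 0.839 by limma, the lowest of these 4). At day 7 they were Rfx5 (0.78, on no array well above background), H2-Eb2 (0.66), Creb1 (-0.41) and Rfxap (-0.40), with an adjusted p of 0.913 by limma for Rfx5. Without GF WT 1 they were 0.84, 1.25, -0.41 and -0.47.

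Costimulatory genes and the partners on T cells were likewise not called. Of 10 costimulation genes 9 were tested at day 0 and 8 at day 7, with 0 past the threshold, and the lowest adjusted p of the limma fits was that of Tnfsf9 at day 0 (0.310, difference 0.44). Within that list r with the core score was over 0.7 for 2 of 9 genes at day 0 (median 0.18) and for 4 of 8 at day 7 (median 0.577), and at day 0 it ran from -0.341 (Relb) to that of Cd40. Cd40, through which T cells license dendritic cells, had r = 0.877 with the core score at day 0 and 0.787 at day 7. Flt3l, the ligand of FLT3, had 0.838 and 0.767, and the T cell costimulatory receptors Cd28 and Icos had 0.823 and 0.774 at day 0 and 0.736 and 0.938 at day 7. Lag3, which also binds class II, had 0.590 and 0.416, and Ctla4, tested at day 0 alone and well above background on 0 of 13 arrays there, had 0.183. Cd4, the coreceptor of class II, had r = -0.454 at day 0 and 0.642 at day 7, with an SD of 0.14 and 0.20. By list, 11 of 11 macrophage genes were lower in GF Card9-/- at day 0 with a median difference of -0.39, beside 8 of 8 smooth muscle genes lower (-0.45) and 8 of 8 pancreas genes higher (1.51). At day 7, 10 of 10 T cell genes (0.73), 10 of 10 B cell genes (0.38), 8 of 8 lymphoid tissue genes (0.48) and 7 of 7 neutrophil genes (0.17) were higher, and 8 of 8 smooth muscle genes were lower (-0.45). Of the neutrophil genes Cxcr2 and Ngp were well above background on 0 of 8 arrays, S100a8 on 1 and Retnlg on 2. Without GF WT 1 these medians were 0.91, 0.82, 0.91, 0.15 and -0.93, with 9 of 10 T cell genes higher, and 0 genes of these lists passed the threshold either way. At day 0, 9 of 10 B cell genes (median -0.17) and 7 of 9 lymphoid tissue genes (-0.12) were lower in GF Card9-/-. Of the T cell genes 8 of 10 (0.18) and of the neutrophil genes 4 of 6 (0.39) were higher there. At day 7, 8 of 11 macrophage genes were higher (0.05). The part of other tissue in these list differences was not tested. Over all genes tested 49.9% were higher in GF Card9-/- at day 7 and 55.5% at day 0.

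Outside the members, genes whose brightest probe followed the core score most closely at day 0 were Cxcr6, a chemokine receptor of T cells and innate lymphocytes (r = 0.986), the leukocyte myosin Myo1f (0.976), Slamf8 of myeloid cells (0.974) and Gpsm3 (0.974). At day 7 they were Pla2g2d, a secreted phospholipase of dendritic cells (r = 0.979), the integrin chain Itgb7 (0.979), Lef1 (0.968), properdin, Cfp (0.965), and the selectin ligand Selplg (0.965). The likeness was Pearson r over 13 and 8 arrays among 21651 and 19624 genes, of which 2.59% and 1.58% had r over 0.8. Of the genes named, Slamf8, Gpsm3 and Selplg were above 0.9 on both days, at 0.908, 0.936 and 0.935 on the day that did not name them, and Cxcr6 had r = 0.729 at day 7.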

How the data were processed

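Colon RNA was hybridized by the authors to 21 Cy3-labelled Agilent arrays, 13 at day 0 and 8 at day 7 on another design. The authors extracted spot intensities with Agilent Feature Extraction 10.7.3.1, and the deposited processed signal is a background-subtracted linear intensity, not normalized between arrays. Feature Extraction also gave the deposited p-value, which compares a spot with its background. The deposited log2 tables, 1 per design, were normalized between arrays by the authors and served only as an alternative. As in the study's methods, log2 intensities were quantile normalized, control probes were removed, and a probe entered the fit if 60% or more of the arrays with 1 of the labels detected it (p under 0.05). Normalizing each day alone, removing outlier spots, averaging the spots of a probe and asking that 50% or more of its spots pass for an array to detect it are choices made here. Of 56605 probes 47410 were tested at day 0, and of 55681 probes 44643 at day 7. Labels were compared by limma 3.58.1 in R 4.3.3 (lmFit, eBayes) with Benjamini-Hochberg adjustment over all probes tested at 0.05, and single genes and correlations by exact or 100000-fold permutation with seed 1. The day 7 arrays labelled GF Card9-/- 2 and 2.1 were counted as separate samples, since the SD of their difference (0.852) was near that of other pairs (median 0.907). The labels name separate samples, not separate cages or litters. P-values of a label difference therefore weigh it against the spread between these samples. Probes were named through RefSeq records (GRCm38.p6) where these match 1 gene, otherwise by the files, and probe positions come from the deposited arrays (NCBI37). Precision is limited by the number of arrays. The fits were tested on simulated data.

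The rule for the genes named, the lists and the members was written with earlier results of these data known. Genes named are the 10 members, Card9, the genes of a list with the 2 highest and 2 lowest label differences for the class II pathway list, and the 5 genes per day most like the core score, of which 1 at day 0 is not reported here. List genes described by their r with the core score, the small intestine list, the motif letters, the list differences without GF WT 1 of day 7 and the exclusions of 2 or 3 arrays at once were chosen after the values were seen. Alternatives were other normalization, background correction, filters, blocks (slide, scan session, replicate number), other probes and each array left out.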

Additional observations from a re-analysis of the deposited data

How the results depend on the processing

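No member passed the threshold at day 0 or day 7 under any alternative run, nor did the difference between the days. Against 12 probes at day 0, 27 passed after normexp background correction, 22 in the deposited table, 22 with the well above background filter, 1 and 3 within scan sessions 1 and 2, 7 without GF Card9-/- 5 and 7, and 8 to 16 with 1 array left out. At day 7, 2 probes passed without GF Card9-/- 2.1 and 6, and 0 to 1 with 1 array left out (1 without GF WT 1). The direction of the small differences was not stable, and the cause was not tested.

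At day 0 the sign turned for Cd74 with 75th percentile scaling (0.0025), and for H2-DMb1 with normexp (-0.014), in the deposited table (-0.0014), in session 1 (-0.44) and without the slide of GF WT 6 (-0.48). Cd86 turned in session 1 (-0.17), without that slide (-0.20), with other probes (-0.13 and -0.34) and as a mean over probes (-0.043), and Ciita with another probe (0.14). The Cd86 probe at -0.13 was well above background on no array, and that at -0.34 on 1 array, labelled GF WT. Another Cd86 probe, well above background on 4 of 7 GF Card9-/- and 4 of 6 GF WT arrays, kept the sign (0.053). In session 2 the sign turned for Cd74 (0.18), Ciita (0.46), H2-Aa (0.17), H2-Ab1 (0.12), H2-DMa (0.14) and H2-Eb1 (0.079). Without GF Card9-/- 5 and 7 it turned for Cd74 (0.27), Ciita (0.088), H2-Aa (0.18), H2-Ab1 (0.14), H2-Eb1 (0.23) and Itgax (0.042), but with GF WT 6 also left out only Cd74 (0.018) and H2-DMb1 (-0.15) turned, and H2-Ab1 was -0.12. With 1 array left out the range was -0.42 to 0.18 for Cd74, -0.073 to 0.47 for Cd86, -0.43 to 0.31 for Ciita, -0.44 to 0.17 for H2-Aa, -0.50 to 0.14 for H2-Ab1, -0.34 to 0.065 for H2-DMa, -0.26 to 0.25 for H2-DMb1 and -0.46 to 0.14 for H2-Eb1.

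At day 7 Cd74 turned with 75th percentile scaling (0.012), the slide as a fixed block (0.58) and GF Card9-/- 2 and 2.1 averaged (0.078). Of the 6 slides of day 7, 2 held arrays of both labels, and the slide block rests on these. Ciita turned with 75th percentile scaling (0.011), normexp (0.077), the deposited table (0.11), floored values (0.11), 2 and 2.1 averaged (0.25) and without 2.1 and 6 (0.26). Other probes turned H2-DMb1 (-0.010) and Flt3 (-0.51), but both were well above background on no array. Another Flt3 probe kept the sign (0.82 ± 0.39, SE), well above background on 2 of 4 GF Card9-/- and 1 of 4 GF WT arrays. With 1 array left out the range was -0.43 to 0.41 for Cd74, -0.52 to 0.62 for Ciita, -0.0036 to 0.70 for H2-Aa, -0.13 to 0.48 for H2-Eb1 and -0.20 to 0.29 for Itgax. For the difference between the days it was -0.38 to 0.46 for Cd74, -0.28 to 0.26 for Cd86 and -0.031 to 0.60 for H2-Eb1.

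Samples with the same replicate number did not deviate together in every pair (r of -0.022 to 0.37 over 6 pairs at day 0, 0.029 and 0.11 over 2 pairs at day 7). For GF Card9-/- 1 and 5 at day 0 and 4 at day 7, the closest array labelled GF WT had the same number. Whether the number marks a pairing or a batch was not tested. With the replicate block 7 probes passed at day 0, and Cd74 (0.15), Ciita (0.099), H2-Aa (0.087), H2-Ab1 (0.072), H2-DMa (0.025) and H2-Eb1 (0.073) turned. At day 7 only the numbers 4 and 6 carry both labels, so the block rests on their arrays. It gave a median of 1.05 over the members, 1.32 for Cd74 and 0.91 for Ciita. The combinations of 2 or 3 arrays left out were chosen after seeing the data. Signal near background limits Ciita at day 7.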
